A study of Mus musculus with 6 samples.

Results

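Fatty acid uptake and binding was described here through 10 genes of mouse liver: Cd36, the fatty acid transport proteins Slc27a1, Slc27a2, Slc27a4 and Slc27a5, and the cytosolic binding proteins Fabp1, Fabp2, Fabp4, Fabp5 and Fabp7. They were taken by name, and all 10 had a row among the 25690 genes of the deposited table. RNA had been sequenced from hepatic tissue of 3 libraries with the wildtype control genotype and 3 with a hepatic FTO knockout, and the design asks how the liver transcriptome differs between them. FTO removes methyl groups from N6-methyladenosine in RNA. Neither age, sex, strain, diet nor the driver of the knockout is given in the sources used here, nor whether each library came from its own animal, so p-values measure the spread between these libraries, which may be technical.

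Long-chain fatty acids reach the hepatocyte from plasma albumin and from lipoprotein lipolysis. CD36, a scavenger receptor of the cell surface, and the SLC27 (FATP) proteins promote their entry, and the SLC27 proteins also couple them to coenzyme A. Inside the cell, small FABP proteins carry the fatty acids through the cytosol, and liver FABP, encoded by Fabp1, is among the most abundant cytosolic proteins of the hepatocyte.

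The stretches before the start sites of Cd36 and Fabp1 are shown because Cd36 was the member that fell and Fabp1 the most abundant member, and both genes are textbook targets of the PPAR nuclear receptors. Each is 250 bases of GRCm38.p6 from RefSeq start sites, written in the direction of the gene. The table of start sites held 7 of the 10 members, and Fabp4, Fabp5 and Slc27a5 are named only. Capitals mark the receptor hexamer AGGTCA, the paired motif DR1 (AGGNCA followed by 1 base of any kind and AGGNCA again) and TATAAA, each searched on both strands.
Cd36, chr5:17835897-17836146, minus strand: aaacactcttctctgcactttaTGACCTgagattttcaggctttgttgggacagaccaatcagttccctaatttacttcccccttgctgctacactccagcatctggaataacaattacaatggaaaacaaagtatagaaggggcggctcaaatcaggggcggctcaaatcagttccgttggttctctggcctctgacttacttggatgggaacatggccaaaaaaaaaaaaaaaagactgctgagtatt
Fabp1, chr6:71199629-71199878, plus strand: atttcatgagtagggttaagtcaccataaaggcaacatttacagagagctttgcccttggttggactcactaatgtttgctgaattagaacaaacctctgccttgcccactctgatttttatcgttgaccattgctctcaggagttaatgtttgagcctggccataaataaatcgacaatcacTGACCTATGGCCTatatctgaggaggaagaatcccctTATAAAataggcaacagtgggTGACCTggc
The Cd36 window held 1 hexamer, with its first base 228 bases before the start, no DR1 and no TATAAA. The Fabp1 window held a DR1 whose first base lay 67 bases before the start, TATAAA at 30 bases and a separate hexamer at 9 bases. The DR1 of Fabp1 contains a hexamer as well, so these 2 motifs overlap there. Of 32851 windows of the same length in the table, 14.0% held the hexamer, 0.338% the DR1 and 12.4% TATAAA. Of the other members with a window, Fabp7 and Slc27a2 each held 1 hexamer and no DR1. A match in letters is a description and not a site. The Cd36 window lies inside the gene, whose GENCODE M21 span of 107112 bases reaches farther upstream. The GENCODE span of Fabp1 starts inside its window, at 71199827, so the TATAAA and the hexamer nearest the RefSeq start lie within the annotated gene.

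The first coding bases of Fabp5 are shown beside those of Gm6166, a processed pseudogene on chromosome 9, because Fabp5 was the member that rose and its reads can be shared with such copies. Both come from GENCODE M21 transcripts, with Fabp5 on the plus strand of chromosome 3, and capitals mark the positions that differ.
Fabp5, first 120 coding bases: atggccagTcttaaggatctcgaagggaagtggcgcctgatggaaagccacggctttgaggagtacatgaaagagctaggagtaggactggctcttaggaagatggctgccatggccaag
Gm6166, the matching 120 bases: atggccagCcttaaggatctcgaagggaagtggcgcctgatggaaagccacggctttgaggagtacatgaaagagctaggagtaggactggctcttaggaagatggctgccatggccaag
The 2 runs differed at 1 base. In all, 5 annotated processed pseudogenes matched the Fabp5 transcript at 90% identity or more over at least 200 bases. None of the 5 had a row in the deposited table, so their levels are not known here. The closest, Gm6166, matched 409 bases of the 987-base transcript at 98.3% identity. The sources used here do not say how the authors assigned reads that match several copies, so the Fabp5 level is uncertain to that extent. The 5 Fabp members themselves were far more distinct, with 50.8% (Fabp2 and Fabp4) to 64.2% (Fabp4 and Fabp7) identity of aligned coding bases. Among the other members, only Slc27a2 had a match of this kind, to the overlapping noncoding gene Gm26697 on the opposite strand, which was at 0.382 FPKM or less in every library. Fabp2 overlaps the antisense gene 4933405D12Rik.

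Levels are in FPKM, fragment counts scaled to the length of the transcript and the mapped fragments of the library, so they can be compared between genes. Values of a group follow the order of its replicates 1, 2 and 3, and the wild type libraries are also called controls. Depth inferred from the steps of low values was 34180000 to 42530000 fragments per library. At that depth the Fabp7 level of wild type replicate 1, the thinnest of the FABP values, corresponded to about 35 fragments, and the Slc27a1 level of knockout replicate 1 to about 85. Wild type replicate 3 stood apart from its group. Over the 784 genes of 100 to 1000 FPKM, its median absolute log2 difference was 0.42 from wild type replicate 1 and 0.29 from wild type replicate 2, against 0.14 between those and 0.12 to 0.19 among the knockout libraries. Fto measured 6.67, 6.02 and 6.40 FPKM in the controls and 1.79, 3.83 and 2.66 FPKM in the knockouts, lower in each knockout library than in each control, and transcript remained in the knockout (log2 change -1.004, adjusted p 0.0386). The hepatocyte genes Ahsg, Apoa1, Ttr and Fgb were at 1529 FPKM or more throughout. Albumin had a listed value of 0 in 2 libraries, wild type replicate 1 and knockout replicate 3, which can be a failed estimate, and no member was listed at 0.

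In the knockout, Cd36 fell and Fabp5 rose, and the other 8 genes did not pass the test. The test was limma on log2(FPKM + 1), run over 10405 genes whose mean reached 1 FPKM, with Benjamini-Hochberg adjustment and a threshold of 0.05. All 10 members passed that filter. Of these, 1 was called higher and 1 lower, where 1.11% of all tested genes were called higher and 1.65% lower, 2.76% in either direction. At an unadjusted p under 0.05, 1 was higher and 3 were lower, against 18.7% of tested genes in either direction. The median log2 change of the 10 was -0.28, beside 0.00 for all tested genes, and 8 of the 10 had lower means in the knockout. The groups did not overlap for 4 members, higher for Fabp5 and lower for Cd36, Fabp2 and Slc27a4, where 24.5% of all tested genes did not overlap (11.5% higher and the rest lower).

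Summed hepatocyte markers and the means of ribosomal protein genes were higher in the knockouts. The summed FPKM of all genes did not separate the groups. It was 843847, 902647 and 1076602 in the controls and 902782, 889735 and 866588 in the knockouts. The summed FPKM of 6 hepatocyte markers, albumin left out, ranged from 14702 to 17952 in the controls and from 21129 to 23063 in the knockouts. Of these 6, Ahsg was called higher (log2 change 0.64, adjusted p 0.0425 in limma), a call lost without any 1 library other than wild type replicate 3, with quantile normalization, with no filter and with robust empirical Bayes. Apoa1 (log2 change 0.65), Cps1 (0.58) and Fgb (0.55) were higher in the knockouts without overlap and were not called. Ttr (log2 change 0.14) and Tat (-0.27) overlapped between the groups, and Tat had the lower mean in the knockouts. At an unadjusted p below 0.05 in limma, 4 hepatocyte markers were higher and 0 lower. All 17 cytosolic ribosomal protein genes had higher means in the knockouts, with a median log2 change of 0.45. The median log2(FPKM + 1) over these genes overlapped between the groups, at 9.21 in wild type replicate 3 and 9.19 in knockout replicate 2. Limma called 0 of them, and 10 were higher and 0 lower at an unadjusted p below 0.05. The number called higher was 12 without wild type replicate 3, 6 with the length trend removed, 5 with quantile normalization, 2 with median ratio size factors and 1 with no intensity trend. The part of either list in the members' changes was not tested.

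The calls of the members were read against the share of all genes called under each other setting. Cd36 and Fabp5 were the members called with median ratio size factors (3.26% of tested genes called), quantile normalization (3.89%), a pseudocount of 0.1 (2.84%), a minimum mean of 5 FPKM (2.63%) and no intensity trend (2.83%). They were also the 2 called without knockout replicate 1 (1.23%). Fabp2 joined them with the transcript length trend removed (5.15%), and Fabp7 without wild type replicate 3 (5.32%). Cd36 alone was called with no filter on low values (0.949%), with robust empirical Bayes (3.07%) and in 4 settings that left out a library. These were wild type replicate 1 (2.27%), wild type replicate 2 (1.11%), knockout replicate 2 (1.98%) and knockout replicate 3 (0.887%).

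**Figure D1:**
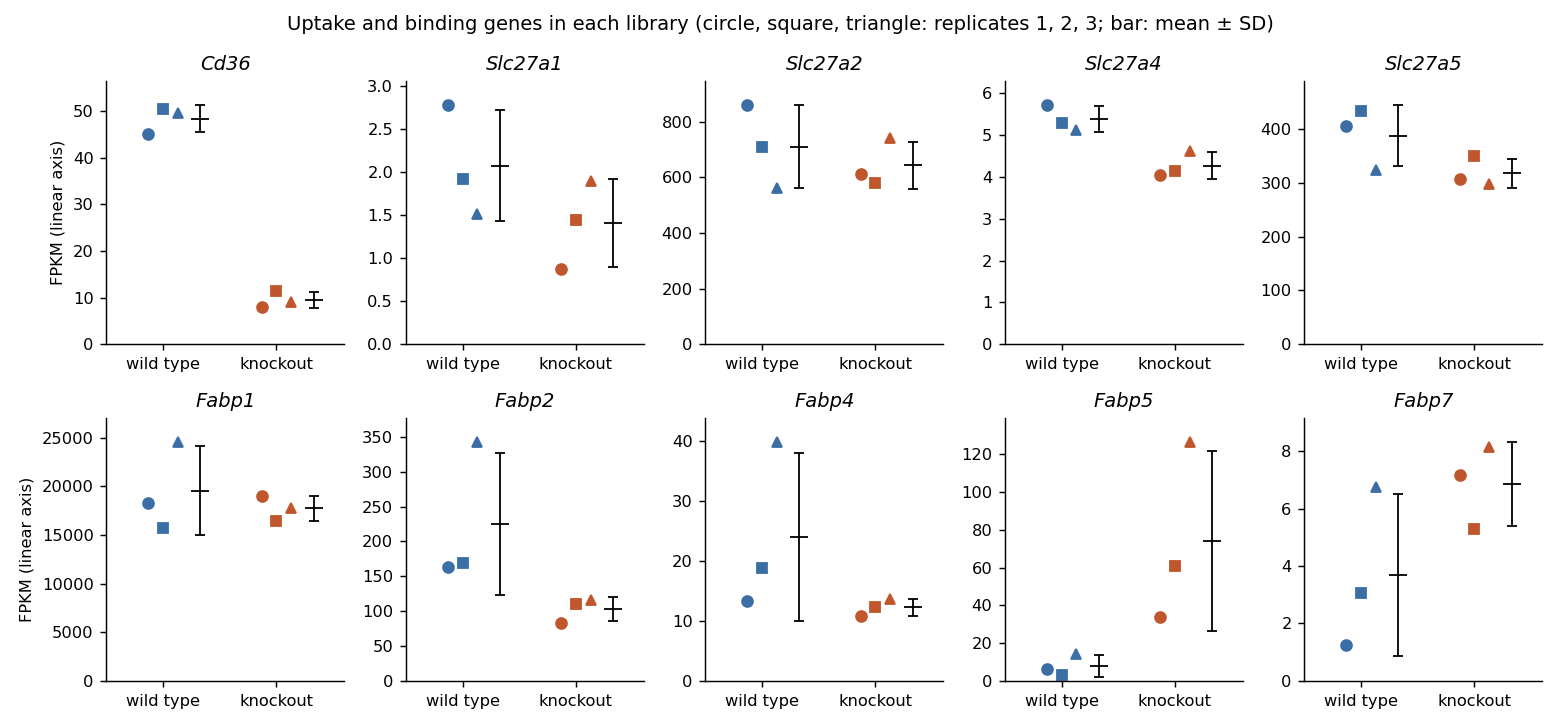
FPKM of the 10 genes in each library on linear axes from 0, with wild type in blue and knockout in orange; circles, squares and triangles are replicates 1, 2 and 3 and black bars are mean ± SD (n = 3). Cd36 lies between 8.03 and 11.4 FPKM in knockout against 45.0 to 50.5 in wild type, and Fabp5 between 34.02 and 126.7 against 2.88 to 14.2.

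Among the membrane proteins, Cd36 (ENSMUSG00000002944, chromosome 5, 17781690 to 17888801 in mm10, minus strand) was the 1 that was called, and it fell. It measured 45.0, 50.5 and 49.7 FPKM in the controls and 8.03, 11.4 and 9.13 FPKM in the knockouts. Every knockout library lay below every wild type library, and the lowest wild type value was several times the highest knockout value. The means were 48.4 ± 2.94 and 9.52 ± 1.72 FPKM (SD, n = 3 each), a 5.08-fold fall. In limma the log2 change was -2.24 (95% interval -2.57 to -1.92, adjusted p 0.00046). Of the 10405 tested genes, 31 had a more negative log2 change, so Cd36 ranked 32 from the bottom. The call held under all 14 other settings tried, with log2 changes of -2.37 to -2.14. The only tested gene within 500 kb of Cd36 was Gnai1, which encodes a G protein subunit, and its log2 change was -0.10 (adjusted p 0.73).

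The hepatocyte transporters Slc27a2 and Slc27a5 were the most abundant membrane members and did not pass the test. Slc27a2 (ENSMUSG00000027359, chr2:126552407-126588243, plus strand) encodes FATP2, a very long-chain acyl-CoA synthetase of the liver, and measured 861, 710 and 563 FPKM in the controls. In the knockouts it measured 611, 579 and 740 FPKM. The groups overlapped, the lowest value being a wild type one. Its log2 change was -0.13 with an interval of -0.56 to 0.30 (adjusted p 0.77), and without wild type replicate 1 it was 0.018. Slc27a5 (ENSMUSG00000030382, chr7:12988346-12998192, minus strand) encodes FATP5, which also couples bile acids to coenzyme A, and measured 406, 434 and 324 FPKM in the controls and 307, 349 and 298 FPKM in knockout. Its groups overlapped through wild type replicate 3, and the log2 change was -0.28 (interval -0.63 to 0.07, adjusted p 0.38). The ratio of Slc27a2 to Slc27a5 within a library, which does not depend on the scaling of libraries, was 1.83 ± 0.254 in the controls and 2.05 ± 0.416 in knockout (SD, n = 3 each), a difference smaller than the spread.

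Slc27a4 and Slc27a1 were far lower, at 0.493% and 0.185% of the summed FPKM of the 4 transporters in wild type. Slc27a4 (ENSMUSG00000059316, chr2:29802634-29817522, plus strand) encodes FATP4, a transporter of the intestine and skin among other tissues. It measured 5.72, 5.28 and 5.12 FPKM in the controls and 4.04, 4.15 and 4.63 FPKM in knockout. All 3 knockout values were below all 3 wild type values, but the separation was small. In limma the log2 change was -0.27 (interval -0.51 to -0.04, unadjusted p 0.0267, adjusted p 0.198). Slc27a1 (ENSMUSG00000031808, chr8:71568882-71587302, plus strand) encodes FATP1, best known from muscle and fat, and lies on chromosome 8 with its end 19.7 Mb from the start of Fto. It measured 2.77, 1.92 and 1.51 FPKM in the controls and 0.873, 1.44 and 1.89 FPKM in knockout, with overlapping groups and a log2 change of -0.35 (interval -0.82 to 0.11, adjusted p 0.40).

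The proportion of Cd36 to the main transporter carried over the Cd36 difference, because Slc27a2 spanned only 1.53-fold over the 6 libraries. The Cd36 level was 5.23%, 7.11% and 8.82% of the Slc27a2 level in the controls and 1.31%, 1.97% and 1.23% in the knockouts. Wild type replicate 3, which had the lowest Slc27a2 level, had the highest of these ratios. That the groups did not overlap was set by the Cd36 levels and is no further result.

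Among the binding proteins, Fabp5 (ENSMUSG00000027533, chromosome 3, 10012548 to 10016607, plus strand) encodes the epidermal form, found in keratinocytes, fat cells and macrophages. It measured 6.18, 2.88 and 14.2 FPKM in the controls and 34.02, 60.9 and 126.7 FPKM in the knockouts. The groups did not overlap, but each was widely spread, with coefficients of variation of 74.9% and 64.5%. The means were 7.74 ± 5.80 and 73.9 ± 47.7 FPKM (SD, n = 3 each), 9.54-fold higher in knockout. In limma the log2 change was 3.12 (95% interval 1.79 to 4.45, adjusted p 0.0359), and 1 tested gene had a larger positive change. The call was lost without wild type replicate 1 (adjusted p 0.0677), wild type replicate 2 (0.0871), knockout replicate 2 (0.0869) or knockout replicate 3 (0.126). It was also lost with no filter on low values (0.0989) and with robust empirical Bayes (0.0819), while the log2 change stayed at 2.63 or above in all 14 settings. Without wild type replicate 3, the control with the highest Fabp5, it was 3.63 (adjusted p 0.0149).

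**Figure D2:**
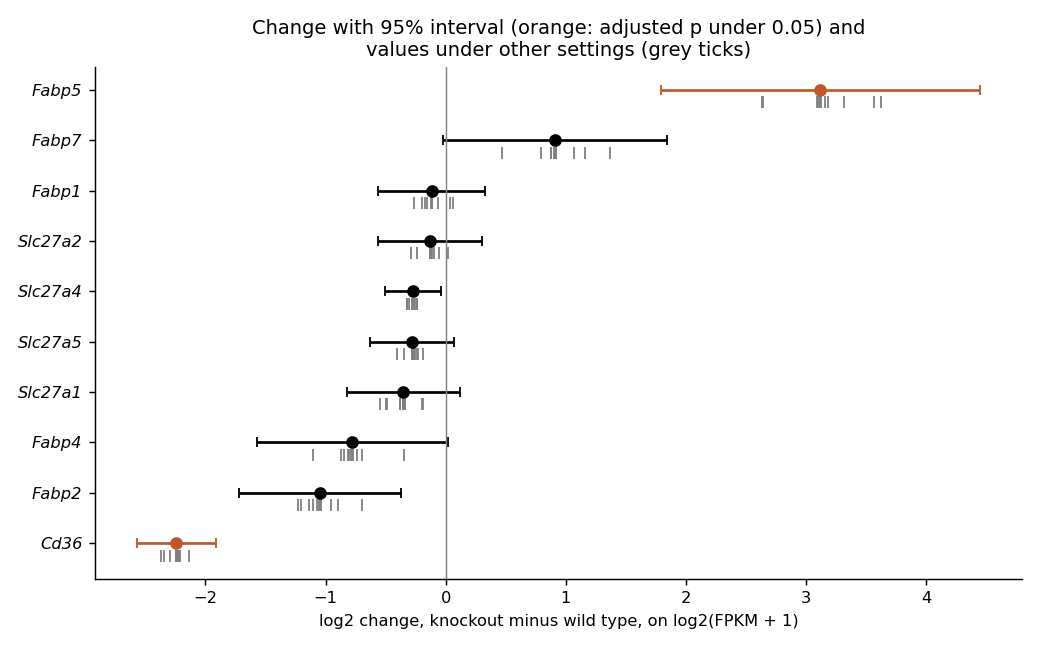
Log2 change, knockout minus wild type, on the log2(FPKM + 1) scale for the 10 genes, with 95% intervals from limma; orange marks an adjusted p under 0.05 and grey ticks are the values under the other settings. The Cd36 and Fabp5 intervals lie on opposite sides of 0, and the ticks of Fabp1 and Slc27a2 fall on both sides.

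Fabp4 (ENSMUSG00000062515, chr3:10204088-10208576, minus strand), the adipocyte form, which endothelial cells and macrophages also make, lies 187.5 kb from Fabp5 in the same gene cluster and did not follow it. It measured 13.3, 18.8 and 39.9 FPKM in the controls and 10.8, 12.4 and 13.7 FPKM in the knockouts. Knockout replicate 3 lay just above wild type replicate 1, and wild type replicate 3 was far above all others. The log2 change was -0.78 (interval -1.57 to 0.02, adjusted p 0.28), and -0.35 without wild type replicate 3. The ratio of Fabp5 to Fabp4 was 0.464, 0.153 and 0.355 in the controls and 3.15, 4.91 and 9.28 in knockout, so Fabp4 was the more abundant of the pair in every wild type library and Fabp5 in every knockout library. Of the 5 tested genes within 500 kb of Fabp4, Fabp5 was the 1 that was called.

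Fabp1 (ENSMUSG00000054422, chr6:71199827-71205023, plus strand) held 98.4% to 99.3% of the summed FPKM of the 5 binding proteins in every library and did not pass the test. It measured 18304, 15711 and 24579 FPKM in the controls and 18994, 16438 and 17731 FPKM in the knockouts. Only 7 tested genes had a higher mean. The highest and the lowest value were both wild type. The log2 change was -0.12 (interval -0.56 to 0.33, adjusted p 0.81), and it changed sign with quantile normalization (0.037) and without wild type replicate 3 (0.061). Against this amount Fabp5 stayed a minor part, at 0.0361% ± 0.0194 of the binding protein sum in wild type and 0.416% ± 0.267 in knockout (SD, n = 3 each).

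Fabp2 (ENSMUSG00000023057, chr3:122895072-122899506, plus strand), the intestinal form, was the second most abundant binding protein in wild type. It measured 163.9, 169.5 and 343 FPKM in the controls and 83.0, 110.3 and 116 FPKM in the knockouts. All knockout libraries lay below all wild type libraries, and wild type replicate 3 was again the highest. The means were 225 ± 102 and 103 ± 17.7 FPKM, with a log2 change of -1.05 (interval -1.72 to -0.37, unadjusted p 0.00747, adjusted p 0.111 in limma). After a trend with transcript length was removed from each library, the adjusted p was 0.0366. Without wild type replicate 3 the log2 change was -0.70 (adjusted p 0.0518). Per 1000 Fabp1, Fabp2 stood at 8.96, 10.8 and 14.0 in the controls and 4.37, 6.71 and 6.56 in knockout, again without overlap. Of the enterocyte markers, Alpi, Lct, Sis, Cdx1 and Cdx2 were at 0 in all 6 libraries and Vil1 was at 0.167 FPKM or less.

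Fabp7 (ENSMUSG00000019874, chr10:57784881-57788450, plus strand), the brain form, which occurs in glia and also in Kupffer cells, was the least abundant binding protein in each library but wild type replicate 2, where Fabp5 was lower. It measured 1.23, 3.07 and 6.76 FPKM in the controls and 7.18, 5.28 and 8.15 FPKM in the knockouts. Wild type replicate 3 lay inside the knockout range, and the other 2 wild type libraries lay below it. The log2 change was 0.91 (interval -0.02 to 1.84, adjusted p 0.279). Without wild type replicate 3 it was 1.37 with an adjusted p of 0.0355, a call that rests on leaving out the highest wild type value.

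**Figure D3:**
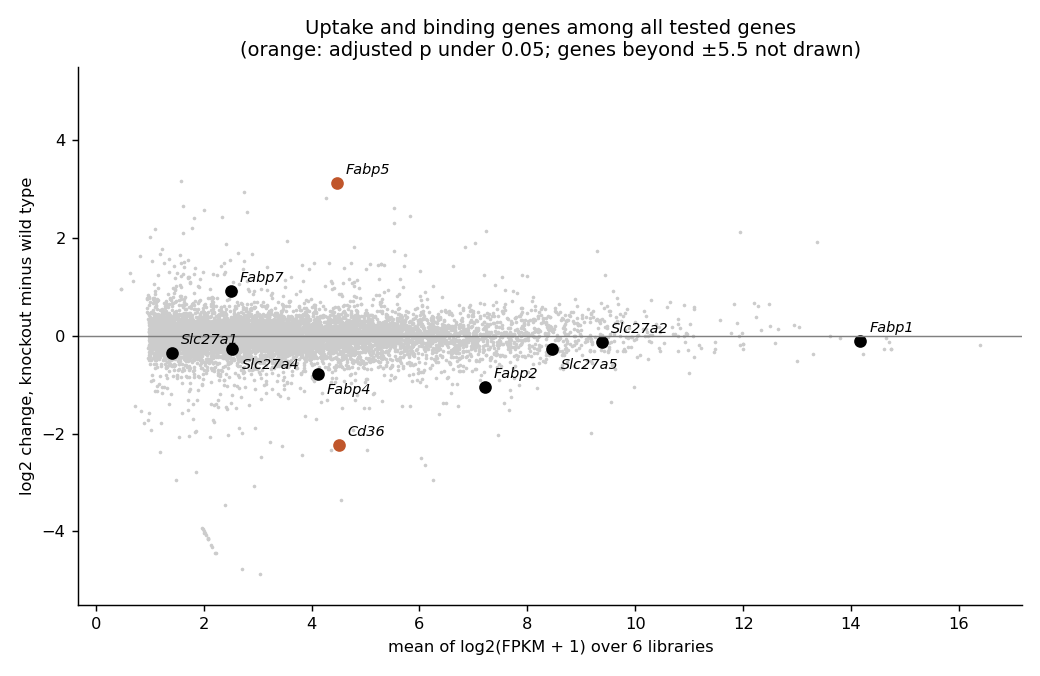
Log2 change against mean log2(FPKM + 1) for the 10405 tested genes (grey; 2 beyond the vertical axis are not drawn) and the 10 uptake and binding genes (orange where the adjusted p is under 0.05). Fabp5 and Cd36 lie outside the cloud at similar mean levels, while Fabp1, Slc27a2 and Slc27a5 lie near 0 at high levels.

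Several of these genes are made by cells other than hepatocytes, and in bulk tissue fewer cells of a type and less RNA per cell cannot be told apart. The summed FPKM of 12 Kupffer cell and macrophage markers was 74.4, 126 and 255 in the controls and 285, 212 and 373 in the knockouts. All 12 had higher means in the knockouts. Limma called 0 of them with all 6 libraries, 8 higher without wild type replicate 3 and 1 higher without knockout replicate 2. At an unadjusted p below 0.05, 5 were higher and 0 lower, and none was at 0 in any library. Fabp7 put the 6 libraries in the same order as this sum, as did 0.753% of the 10364 tested genes without a 0. The Fabp7 level was 1.66%, 2.42% and 2.64% of the sum in wild type and 2.51%, 2.48% and 2.19% in knockout. The highest of these ratios was 1.59 times the lowest, whereas Fabp7 itself spanned 6.61-fold over the libraries. A smaller spread of this ratio was found for 0.309% of the same genes. The 12 markers that make up the sum were themselves counted among these genes. Both shares describe libraries that have depth and scaling in common and were computed after the values had been seen. The part of macrophages in the Fabp7 levels was not tested.

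Fabp5 did not keep a steady ratio to the same markers. It stood at 8.32%, 2.28% and 5.54% of their sum in wild type and at 11.9%, 28.7% and 33.995% in knockout, without overlap between the groups. The Fabp5 levels enter these ratios and did not overlap between the groups either. The highest of the ratios was 14.9 times the lowest, and Fabp5 itself spanned 43.97-fold over the libraries. A smaller spread of the ratio to these markers was found for 98.9% of the same 10364 genes. This share was also computed after the values had been seen. The part of macrophages in the Fabp5 difference was not tested.

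For sinusoidal endothelial cells, 11 markers summed to 88.7, 107.6 and 197 FPKM in the controls and to 113, 136 and 152 FPKM in the knockouts. The groups overlapped and limma called 0 of the 11 markers. At an unadjusted p below 0.05, 1 was lower and 0 were higher. Wild type replicate 3 had the highest sum, as it had the highest Fabp4. The Fabp4 level was 15.0%, 17.5% and 20.2% of this sum in wild type and 9.54%, 9.09% and 8.96% in knockout. The Fabp4 levels themselves overlapped between the groups and were not called (adjusted p 0.28 in limma). Cd36 was at 50.7%, 46.9% and 25.2% of the sum in wild type and 7.09%, 8.37% and 5.99% in knockout. These ratios were formed after the values had been seen and carry no test. The share of all tested genes that separate by group in such ratios is not given, here or for the ratios above.

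Fat cells make CD36, FABP4 and FABP5 as well. Of 7 adipocyte markers, Adipoq measured 0.0825, 0.233 and 0.0248 FPKM in the controls and 0 in all knockout libraries. The other defining genes, Plin1 and Lep, did not exceed 0.0312 FPKM anywhere. The list summed to 8.50 to 10.9 FPKM in the controls and 3.30 to 4.55 FPKM in knockout, most of it Cfd and Lipe. Cfd, the complement factor adipsin, fell 5.62-fold (adjusted p 0.00388) and Lipe, hormone-sensitive lipase, was not called, and these were the 2 markers with a mean of at least 1 FPKM. Retn, the resistin gene, was listed at 0.123, 0.217 and 0.162 FPKM in the controls and 0.0818, 0 and 0 FPKM in the knockouts. The part of fat cells in the Cd36 difference was not tested.

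**Figure D4:**
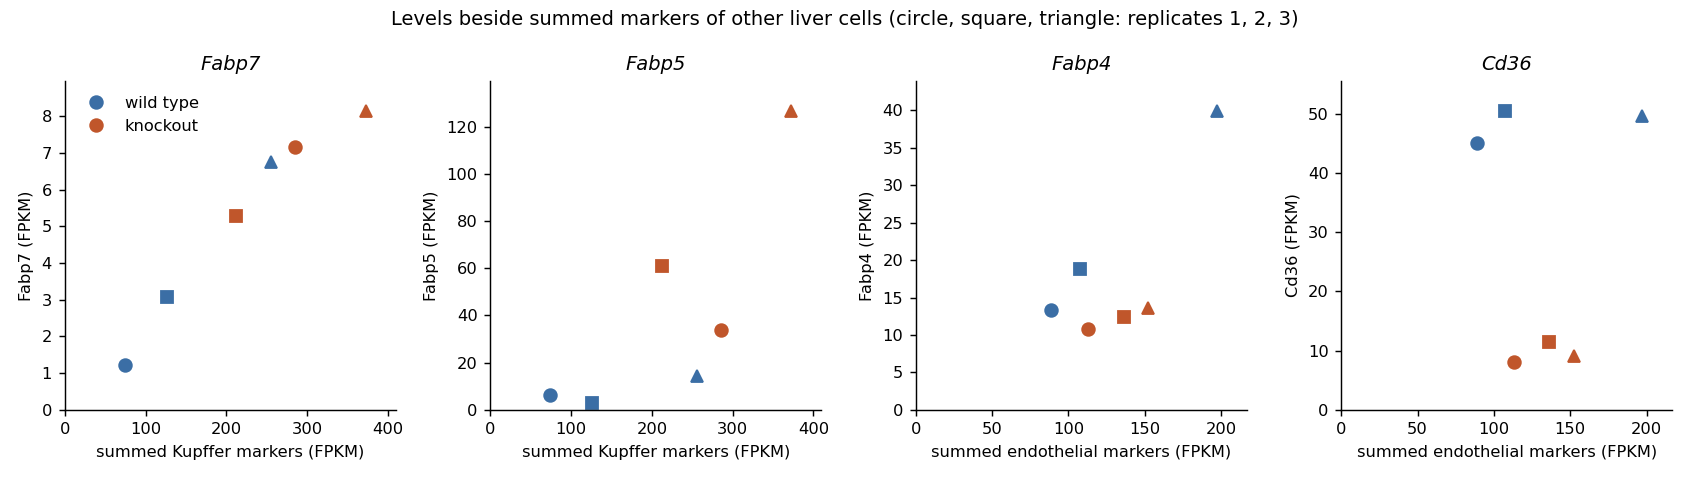
FPKM of Fabp7 and Fabp5 against the summed FPKM of 12 Kupffer cell and macrophage markers, and of Fabp4 and Cd36 against the sum of 11 sinusoidal endothelial markers, per library (blue wild type, orange knockout; circle, square and triangle are replicates 1, 2 and 3). The 6 Fabp7 points rise with the marker sum, while the Cd36 points separate by group over overlapping marker sums.

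Among 13 other genes of fatty acid entry and binding, 5 were tested, and limma called 1 lower and 0 higher, with a median log2 change of 0.09. Mfsd2a, which carries lysophosphatidylcholine with bound docosahexaenoic acid, fell 2.96-fold. It measured 53.8, 40.5 and 76.2 FPKM in the controls and 18.2, 17.9 and 21.6 FPKM in knockout (log2 change -1.47, adjusted p 0.0159). The Mfsd2a call was lost without any 1 of the knockout libraries, with adjusted p-values of 0.0571 to 0.0662, and with no filter (0.0576). Scarb1 and Scarb2, the other class B scavenger receptors, had log2 changes of 0.15 and 0.09 and were not called. Got2, also known as the plasma membrane fatty acid binding protein, had one of -0.27 (adjusted p 0.239). Fabp6 and Fabp9 were at 0 in all 6 libraries and Fabp3 at 0.376 FPKM or less.

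Of 10 acyl-CoA synthetases and acyl-CoA binding proteins, which trap fatty acids as their coenzyme A esters, 9 were tested, with 0 higher, 1 lower and 8 not called. Acbd4, an acyl-CoA binding protein, measured 55.4, 51.2 and 44.9 FPKM in the controls and 31.1, 33.7 and 34.3 FPKM in knockout. This was a 1.53-fold fall (log2 change -0.59, adjusted p 0.0484), and the call was lost without any 1 of 5 libraries (0.103 to 0.196), wild type replicate 3 being the exception, and with quantile normalization (0.0751) and with no filter (0.0635). The median log2 change of the 9 was -0.24.

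Of 19 lipases and proteins of lipoprotein uptake, which release or take in lipoprotein fat, 18 were tested, with 1 higher, 1 lower and 16 not called and a median log2 change of -0.23. Lpl, the lipase that frees fatty acids from circulating triglyceride, measured 1.13, 1.25 and 1.18 FPKM in the controls and 2.195, 2.46 and 3.16 FPKM in knockout. It rose 2.19-fold (adjusted p 0.0280), and the call was lost without any 1 of 4 libraries, the exceptions being wild type replicate 3 and knockout replicate 1 (0.0662 to 0.105), and with no filter (0.0687). Lipa, the lysosomal acid lipase, measured 68.2, 66.1 and 71.1 FPKM in the controls and 44.2, 45.6 and 48.3 FPKM in knockout. It fell 1.49-fold (adjusted p 0.0380), and the call was lost without any 1 library other than wild type replicate 3 (0.0784 to 0.149). Vldlr, the very low density lipoprotein receptor gene, had a mean under 1 FPKM and was not tested. It measured 0.994, 1.102 and 1.34 FPKM in the controls and 0.202, 0.272 and 0.0840 FPKM in knockout, and it is named because its values had been seen.

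Of 19 nuclear receptors and other regulators, 18 were tested, with 0 higher, 1 lower and 17 not called and a median log2 change of -0.08. Pparg, the nuclear receptor of fat storage, measured 6.85, 10.1 and 10.3 FPKM in the controls and 3.27, 2.98 and 3.26 FPKM in knockout. Its groups did not overlap, and it fell 2.86-fold (log2 change -1.25, adjusted p 0.00723), a call kept in all 14 settings. Ppara, the fasting receptor of the liver, had a log2 change of -0.23 and Rxra, the common partner of these receptors, one of 0.22, and neither was called. Of 11 genes for CD36 acylation, partners and signalling, 8 were tested and limma called 0, while 1 was lower and 0 were higher at an unadjusted p below 0.05.

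**Figure D5:**
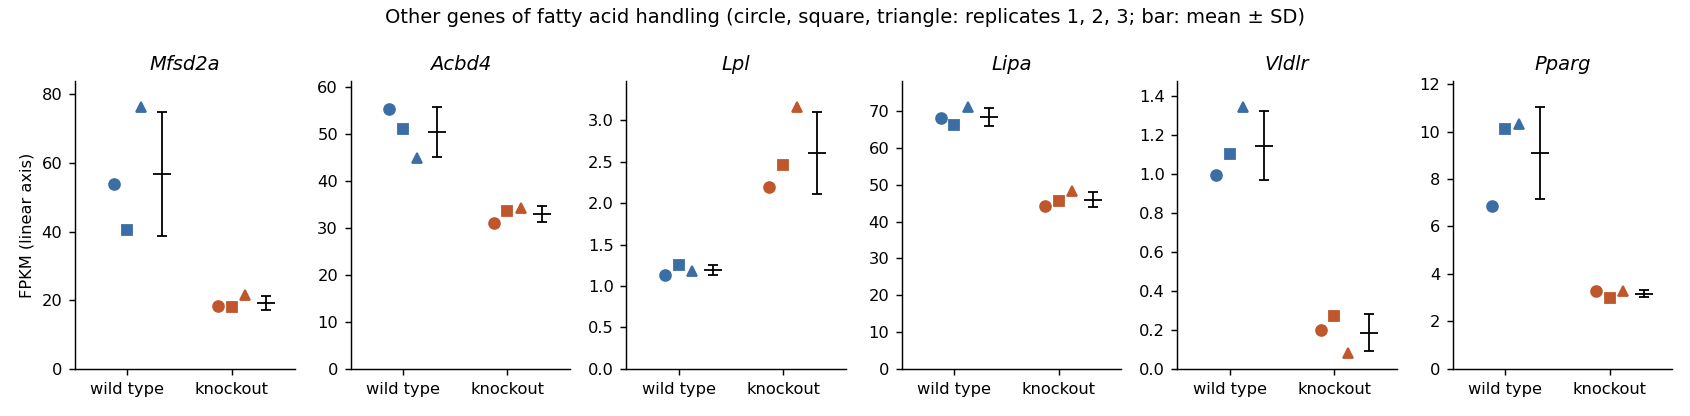
FPKM in each library, on linear axes from 0, of 5 called genes of the companion lists and of Vldlr, which was below the level for testing; blue is wild type, orange knockout, symbols are replicates 1, 2 and 3 and bars mean ± SD (n = 3). Lpl is higher and the other 5 are lower in every knockout library than in every wild type library.

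The tested genes most like the 2 called members over the 6 libraries were found by the mean absolute difference of log2(FPKM + 1) after each gene was centred on its own mean. Genes without a symbol and predicted models (Gm and Rik symbols) were left out. For Cd36 the most alike were Ces1g, a carboxylesterase gene (0.16), Pnldc1 (0.23) and Kbtbd11 (0.27). Ces1g measured 64.9, 81.3 and 71.5 FPKM in the controls and 8.34, 21.1 and 13.9 FPKM in the knockouts, again without overlap. For Fabp5 they were Cd207, which encodes the Langerhans cell lectin langerin (0.68), Tff3 (0.72) and Selenbp2 (0.73). The distances of the 2 members cannot be compared, because the measure is not scaled to the spread of a gene and Fabp5 was widely spread. The choice by likeness to a called member fixes the direction of these 6 genes, and Kbtbd11, Cd207 and Tff3 reached the mean of 1 FPKM through the group where they were high.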

How the data were processed

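RNA sequencing libraries of mouse hepatic tissue, 3 wild type and 3 FTO knockout by the genotype label, were compared. The deposited table holds FPKM made by the authors; the submitters' processing notes name TopHat2 2.1.0, HTSeq, Cufflinks 2.2.1 and mm10 without their roles. Replicates were numbered by accession order, and the numbers pair no libraries. Of 25690 identifiers, 24807 had a symbol in GENCODE M21, whose GRCm38 coordinates match mm10. Depth was inferred from low values of 792 single-transcript genes, within 25000000 to 50000000 fragments, a window set with earlier results known; no count model was used.

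limma 3.58.1 (R 4.3.3; lmFit, eBayes with an intensity trend, two-sided) was fitted to log2(FPKM + 1) for the 10405 genes whose mean reached 1 FPKM, a scale that understates changes of low genes. It was tested on simulated data in which genes varied independently, with no differences shared across a library. That test cannot vouch for the calls here. Folds are ratios of mean FPKM. All members, up to 4 called genes of each pathway list by smallest p, and the 3 genes most alike each called member are named; other genes were chosen after their values were seen. Members and lists were chosen with earlier results of these data known. Of the listed genes, 2 had no matching row. Alternatives were 8 settings and leaving out each of 6 libraries.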

Additional observations from a re-analysis of the deposited data

How the results depend on the processing

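Cd36 was called lower under all 14 alternatives, and Fabp5 had a higher mean under all 14 but was called under 8. The number of members called higher was 0 with no filter on low values and with robust empirical Bayes, and 0 to 2 when single libraries were left out. The number called lower was 2, Cd36 and Fabp2, after removal of the length trend, and 1 otherwise. The Fabp1 log2 change was 0.037 with quantile normalization and -0.262 to 0.061 when single libraries were left out, above 0 without wild type replicate 3. The Slc27a2 log2 change was -0.288 to 0.018 when single libraries were left out, above 0 without wild type replicate 1. The cause was not tested. Over all genes, 115 were called higher and 172 lower. Quantile normalization gave 180 higher. A minimum mean of 5 FPKM, which tests fewer genes and leaves out Slc27a1 and Slc27a4, gave 69 higher and 96 lower. No filter gave 93 lower, with 18965 genes tested. Removal of the length trend gave 235 higher and 301 lower. Leaving out single libraries gave 43 to 312 higher and 49 to 240 lower, the lowest counts without knockout replicate 3 and the highest without wild type replicate 3. No paired analysis was possible because the labels give the libraries no shared replicate numbers. Fabp7 and Slc27a1 had the lowest single inferred fragment numbers of the members, about 35 and 85. The coefficient of variation in wild type was 76.3% for Fabp7 and 74.9% for Fabp5. What limits each call was not tested.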
